A study of Mus musculus with 2 samples.

Results

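The growth hormone and STAT5 axis is described here through 10 genes: Ghr, Prlr, Stat5a, Stat5b, Socs2, Cish, Bcl6, Cux2, Igf1 and Igfals, of the 27998 genes of the deposited tables. They were chosen by symbol with earlier results of these libraries in view, above all the ratio of Cux2 between the libraries, so their levels and ratios are a description. Growth hormone reaches the liver in pulses and acts through its receptor, which carries the kinase JAK2. The active receptor leads to phosphorylation of STAT5 proteins, which enter the nucleus and switch on target genes such as Igf1, the main circulating growth factor made by hepatocytes, and the feedback inhibitors Socs2 and Cish. In mouse liver the pulse pattern differs between the sexes, and STAT5 together with the repressors BCL6 and CUX2 sets many male-biased and female-biased genes.

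All nuclei came from C57BL/6 mice aged 12 weeks whose livers were taken at 48 h of regrowth, which follows when a share of the organ is cut away (partial hepatectomy, PHx in the labels). One library is labelled HKO and the other WT, which the series names Sox9HKO and Sox9f/f, so the WT mice carry a floxed Sox9 allele and are not plain wild type. The labels give neither the Cre driver nor the number or sex of the animals. Each group was 1 library of nuclear RNA read from the 3′ end, so differences between HKO and WT have no replicate check, no test was made, and genotype cannot be told apart from the animal, the surgery or the library preparation. Sox9 itself was at 5.78 CPM (UMIs of a gene scaled to a class total of 1e+06) in HKO hepatocyte-like nuclei against 11.4 CPM in WT, from 222 and 501 UMIs. A 3′ read outside the deleted part does not show the deletion.

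HKO held 14912 barcodes and WT 14701, with a median of 3286 and 3430 UMIs, and 70 barcode sequences occurred in both libraries. Marker genes gave 8 named classes, of which the hepatocyte-like one had 8692 nuclei in HKO and 9624 in WT, with 38402680 and 43932091 UMIs. All 15 hepatocyte markers were detected there in both libraries, at a summed 16205 CPM in HKO against 30142 CPM in WT. Every hepatocyte-like cluster was almost wholly of 1 library, and so were the 2 endothelial-like clusters (2309 HKO and 3 WT nuclei, and 5 and 1117), the 2 macrophage-like ones (1786 and 2, and 1 and 1068) and the 2 stellate-like ones (1130 and 22, and 2 and 599). Ratios of HKO over WT within these classes therefore compare different clusters. Haemoglobin and mitochondrial transcripts moved with the libraries: hepatocyte-like haemoglobin transcripts were at 35.6 CPM in HKO against 2.37 CPM in WT, and the median mitochondrial share was 0.0741% and 0.271%. A WT cluster of 1890 nuclei led by mitochondrial genes was left unnamed. Intervals in parentheses are exact 95% intervals that cover counting error only.

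STAT5 binds a short inverted repeat, TTCNNNGAA, which reads the same on both strands and overlaps motifs of other STAT proteins and of BCL6. All stretches with this motif in the windows of Cish, Bcl6 and Igfals are printed because these members are targets, inhibitors or repressors of the route. RefSeq start sites on GRCm38.p6 gave 18 windows, each from 250 bases before to 50 after a start, for 9 of the 10 genes, and Socs2 had no entry. The motif was in 6 of the 18 windows, against 8.30% of all 32851 windows. By gene it was in 4 of 9 (Prlr, Cish, Igfals and Bcl6), against 9.55% of all 27025 genes with a window. The members had more windows per gene (18 for 9 genes, against 32851 for 27025), so the 2 shares by gene are not on equal terms. The single Cish window and the second Bcl6 window held 2 and 3 matches, while 0.457% of all windows held 2 or more. Capitals mark the motif, and each line is read 5′ to 3′ on the strand of its gene.
Cish, plus strand, chr9:107296649-107296677: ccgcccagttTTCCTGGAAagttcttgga
Cish, plus strand, chr9:107296660-107296688: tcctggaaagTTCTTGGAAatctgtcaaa
Bcl6, minus strand, chr16:23988952-23988980: agcaaattagTTCTCAGAAttccagaggc
Bcl6, minus strand, chr16:23981433-23981461: aggccgcggcTTCCTGGAAagttacttct
Bcl6, minus strand, chr16:23981387-23981415: ggcaggagtgTTCTGTGAAatccttagag
Bcl6, minus strand, chr16:23981353-23981381: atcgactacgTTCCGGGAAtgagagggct
Igfals, plus strand, chr17:24877598-24877626: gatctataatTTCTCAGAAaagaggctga
Igfals, plus strand, chr17:24878163-24878191: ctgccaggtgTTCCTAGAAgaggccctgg
A match is a description of letters, and binding was not measured. None of the windows of Ghr, Stat5a, Stat5b, Igf1 and Cux2 held the motif.

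In hepatocyte-like nuclei 1 of the 10 genes, Cux2, was more than 2-fold higher in HKO, and 1, Igfals, was more than 2-fold lower. Of the 8416 genes whose mean over the libraries reached 10 CPM, 2.99% were higher and 4.5% lower by that size. These shares stand beside the counts only, since the genes were chosen with this contrast known. All 10 members passed the 10 CPM floor. Cux2 passed it only through HKO (94.0 CPM, against 2.78 in WT) and Igfals only through WT (16.2 CPM, against 7.19 in HKO). The counts past 2-fold therefore support nothing. The median log2 ratio of HKO over WT was -0.06 for the members and 0.16 for all genes, with 0.5 CPM added to each level before the ratio.

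**Figure D1:**
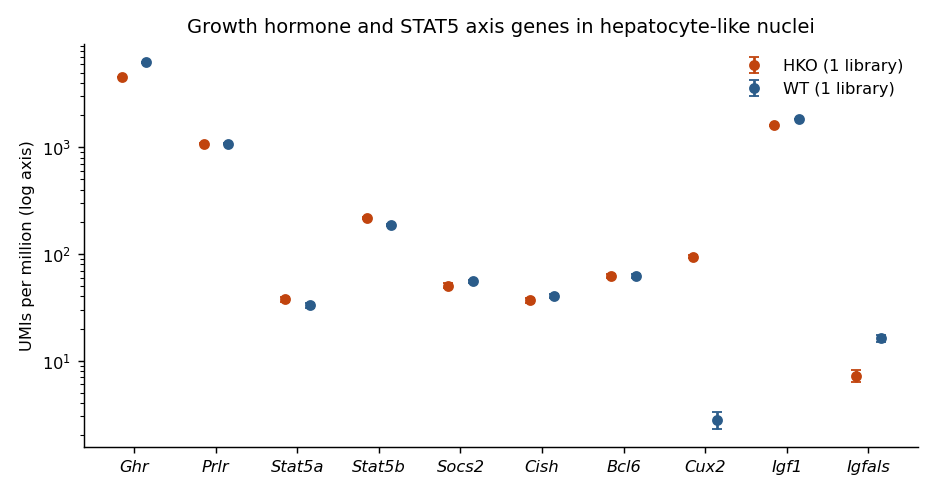
Levels of the 10 genes in hepatocyte-like nuclei of HKO and WT, in CPM on a log axis; points are single libraries and bars exact 95% counting intervals. The 2 points of a gene lie close together except for Cux2 (94.0 in HKO and 2.78 in WT) and Igfals (7.19 and 16.2).

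Ghr encodes the growth hormone receptor and lies on chromosome 15 at 3317760 to 3583492, minus strand (GRCm38, GENCODE vM21, as for all gene positions here). Its level was 4548 CPM (4527 to 4569) in HKO against 6244 CPM (6221 to 6267) in WT, a log2 ratio of -0.46. WT was thus 1.37-fold higher (1.36 to 1.38), short of the 2-fold size. Nearly every hepatocyte-like nucleus held a Ghr UMI, 7726 of 7741 in HKO and 9532 of 9536 in WT after thinning each nucleus to 2000 UMIs, which left out 951 HKO and 88 WT nuclei below that depth.

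Prlr encodes the prolactin receptor, a relative of the growth hormone receptor that also signals through STAT5, on chromosome 15 at 10177238 to 10349180, plus strand. It was at 1084 CPM (1074 to 1095) in HKO against 1081 CPM (1071 to 1091) in WT, a log2 ratio of 0.00. The interval of the fold was 0.990 to 1.02. By class totals Prlr was the receptor whose level hardly separated the libraries, with a UMI in 84.7% and 84.0% of thinned nuclei. Gm21973, which overlaps Prlr on the same strand, was at 32.2 and 19.8 CPM.

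Stat5a and Stat5b are the transcription factors of the route and lie 8626 bases apart on chromosome 11, Stat5a at 100859351 to 100885169 on the plus strand and Stat5b at 100780731 to 100850724 on the minus strand. Stat5b, the form known to dominate in liver, was at 218 CPM (214 to 223) in HKO against 186 CPM (182 to 190) in WT, a log2 ratio of 0.23. Stat5a was at 37.8 CPM (35.8 to 39.7) and 33.1 CPM (31.4 to 34.8), a log2 ratio of 0.19. Both were a little higher in HKO, close to the median ratio of all genes. Stat5a overlaps Stat3 on the opposite strand (at 420 CPM in HKO against 410 CPM in WT), and the sources used here do not say whether the counting used strand.

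Socs2 and Cish encode suppressors of cytokine signalling that STAT5 induces and that damp the receptor in turn. Socs2, on chromosome 10 at 95385362 to 95417180 (minus strand), was at 50.6 CPM (48.4 to 52.9) in HKO against 55.4 CPM (53.2 to 57.6) in WT. Cish, on chromosome 9 at 107296026 to 107302784 (plus strand), was at 36.8 CPM (34.9 to 38.7) and 40.5 CPM (38.6 to 42.4). The 2 inhibitors had like log2 ratios of -0.13 and -0.14. Neither difference approached the 2-fold size.

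Igf1 lies on chromosome 10 at 87858265 to 87937042, plus strand. It was at 1608 CPM (1596 to 1621) in HKO against 1839 CPM (1827 to 1852) in WT, a log2 ratio of -0.19. Its antisense partner Igf1os was at 45.0 and 28.0 CPM, higher in HKO, in the direction opposite to Igf1.

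Igfals encodes the acid-labile subunit, which holds IGF1 in a long-lived complex in blood, and lies on chromosome 17 at 24865997 to 24882010, plus strand. HKO gave 276 UMIs, 7.19 CPM (6.36 to 8.09), and WT 710 UMIs, 16.2 CPM (14.99 to 17.4). WT was 2.25-fold higher (1.95 to 2.59), a log2 ratio of HKO over WT of -1.12. A UMI was present in 1.46% (1.20 to 1.75) of thinned HKO nuclei and 3.33% (2.98 to 3.71) of WT nuclei. This member moved with the mitochondrial share, which was higher in WT. Nuclei of each library were cut into 3 equal ranges by their mitochondrial share. Igfals was at 8.71 CPM in the highest range against 6.15 CPM in the lowest one of HKO, and at 21.4 CPM against 13.0 CPM in WT. Its level in the unnamed WT cluster with many mitochondrial transcripts was 32.4 CPM. The part of the mitochondrial share in the Igfals difference was not tested, and with 5 CPM added in place of 0.5 the log2 ratio was -0.80, inside the 2-fold size.

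Bcl6, a repressor that binds many STAT5 sites and is higher in male liver, lies on chromosome 16 at 23965052 to 23988852, minus strand. It was at 62.0 CPM (59.5 to 64.5) in HKO against 61.9 CPM (59.6 to 64.3) in WT. The fold had an interval of 0.948 to 1.06, so by class totals the 2 libraries gave the same level within counting error. The log2 ratio was -0.16 with median ratio size factors and -0.12 with TMM factors (both described below), under that interval.

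Cux2 encodes a homeobox factor that is typical of female mouse liver and represses male-biased genes. It lies on chromosome 5 at 121856366 to 122050102, minus strand. HKO hepatocyte-like nuclei held 3609 Cux2 UMIs, 94.0 CPM (90.9 to 97.1), and WT nuclei 122 UMIs, 2.78 CPM (2.31 to 3.32). HKO was 33.8-fold higher (28.3 to 40.9), a log2 ratio of 4.85, and no other gene over the floor had a higher ratio. After thinning, 15.6% (14.8 to 16.4) of HKO nuclei and 0.619% (0.471 to 0.797) of WT nuclei held a UMI, and before thinning 28.4% and 1.17%. At most 8 UMIs were seen in 1 HKO nucleus and 2 in 1 WT nucleus. The variance of the thinned counts over their mean was 1.14 in HKO, near the value of 1 that evenly spread counts give, so the UMIs were spread over many nuclei and not held by a few. Its antisense partners Gm3970 and Gm15637 had no more than 1 UMI in either library.

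Both libraries carried Y-linked transcripts in hepatocyte-like nuclei: Uty was at 309 CPM in HKO against 233 CPM in WT, and Ddx3y at 102 and 93.2 CPM. Xist, the transcript of the inactive X chromosome in female cells, had 12 UMIs in HKO and 6 in WT. The Cux2 difference was thus between 2 libraries that both held male nuclei. Genes of the daily clock and of fasting also differed between the libraries, in both directions, and are named here after their values were seen. The clock gene Per1 was at 71.4 CPM in HKO against 8.04 CPM in WT, and Ciart, a clock repressor, at 22.2 and 1.64 CPM. Arntl, the clock activator, ran the opposite way at 31.9 and 87.9 CPM. Lpin1, a lipid phosphatase induced by fasting, was higher in HKO, at 571 and 37.0 CPM. Pck1, an enzyme of glucose synthesis that fasting also induces, was lower in HKO, at 1421 and 1881 CPM. The part of feeding and time of day in the members' ratios was not tested. Haemoglobin was higher in HKO, like Cux2, and without the nuclei that held a haemoglobin UMI the Cux2 log2 ratio was 4.85.

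**Figure D2:**
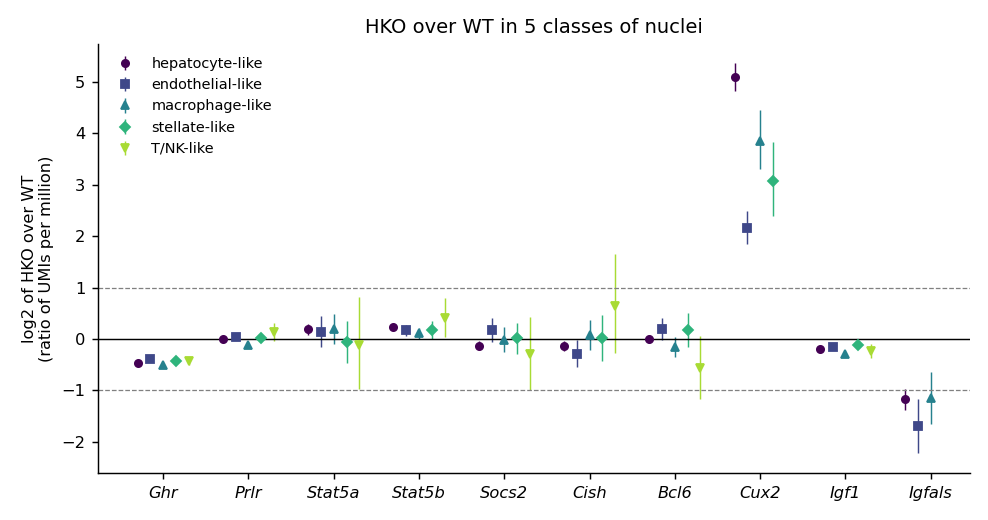
Log2 of HKO over WT (ratio of CPM) for the 10 genes in 5 classes of nuclei; bars are exact 95% conditional intervals and dashed lines mark a 2-fold difference, with genes under the 10 CPM floor or with 3 or fewer UMIs in a library not drawn. Cux2 lies above the upper line in all 4 classes drawn, and Igfals below the lower line in the 3 classes drawn.

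The other classes hold much RNA from outside their nuclei: the median hepatocyte marker in endothelial-like nuclei stood at 86.4% (HKO) and 94.9% (WT) of its level in hepatocyte-like nuclei. The same share was 84.8% and 87.0% in macrophage-like nuclei, 76.9% and 90.0% in stellate-like nuclei, and 92.0% and 99.0% in T/NK-like nuclei. A gene made only by hepatocytes can therefore show nearly its full level everywhere, and the values of each class are read beside these shares. Ghr stood at 83.5%, 77.2%, 70.9% and 81.4% of its hepatocyte-like level in the HKO endothelial-like, macrophage-like, stellate-like and T/NK-like nuclei. In WT it stood at 79.2%, 79.9%, 69.5% and 79.8%. These values lie below the marker share of the same class and library in all 8 cases.

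Igf1, also known from macrophages, showed no level above that of hepatocyte-like nuclei in any class. It stood at 84.0% in endothelial-like, 81.6% in macrophage-like and 71.3% in stellate-like nuclei of HKO, and at 82.1%, 87.2% and 67.6% in WT. Prlr ranged in the 4 classes from 68.9% to 82.6% in HKO and from 68.4% to 84.3% in WT. The growth hormone receptor, the prolactin receptor and Igf1 were thus highest in hepatocyte-like nuclei, with the other classes at or below about the marker share.

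Stat5b, which is known to be expressed broadly, stood at 99.1% of its hepatocyte-like level in endothelial-like and 109% in T/NK-like nuclei of HKO, and at 104% and 96.6% in WT. In macrophage-like nuclei it stood at 94.9% (89.7 to 100.3) in HKO and 103% (97.1 to 109.9) in WT, the latter above the highest of the 15 hepatocyte markers there (92.0%). Bcl6 stood at 104% (93.3 to 115.6) in the same WT nuclei, also above that marker, and at 93.2% (83.7 to 103.4) in HKO. Stat5a ranged from 82.3% to 91.4% in HKO and from 85.2% to 113% in WT over the 4 classes. Socs2 was at 101% in endothelial-like and 112% in stellate-like nuclei of HKO, with intervals of 91.1 to 112% and 97.2 to 129% that both include 100%. Cish ranged from 75.0% to 126% in HKO and from 67.1% to 98.8% in WT. Whether RNA made in these classes adds to the levels of these genes was not tested.

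A member counted as above when the lower bound of its ratio to hepatocyte-like nuclei of the same library exceeded 1. In HKO 0 of 10 genes were above in endothelial-like, macrophage-like, stellate-like, T/NK-like, B-like and dendritic-like nuclei, where 23.8%, 27.4%, 23.8%, 14.6%, 12.2% and 13.6% of all genes tested were. Only Bcl6 in the 119 cholangiocyte-like nuclei passed, at 98.9 CPM (66.2 to 142) from 29 UMIs, against 12.7% of all genes, and with at least 2000 UMIs per nucleus required none did. In WT 1 of 10, Cux2, was above in endothelial-like, macrophage-like and stellate-like nuclei and 0 in T/NK-like nuclei. Of all genes tested, 20%, 28.7%, 22.2% and 10.5% were. Genes tested had a mean of at least 10 CPM over the class and hepatocyte-like nuclei, and members were counted without that floor. Igfals lay under it in every HKO class. WT Cux2 lay under it in macrophage-like, stellate-like and T/NK-like nuclei. In endothelial-like nuclei WT Cux2 reached it only through that class, where it was high. Jak2, the receptor's kinase and no member, was 2.06-fold (1.88 to 2.25) above its hepatocyte-like level in HKO endothelial-like nuclei and 1.89-fold (1.71 to 2.09) in WT. Its fold was 2.26 and 2.18 in stellate-like and 1.65 and 1.27 in macrophage-like nuclei of HKO and WT. In HKO it was 2.03 in T/NK-like, 1.92 in B-like and 3.47 in dendritic-like nuclei. The interval included 1 in HKO cholangiocyte-like (0.771 to 2.20) and WT T/NK-like nuclei (0.856 to 1.93).

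The order of Cux2 levels over the classes was different in the 2 libraries. In WT it was at 17.5 CPM (14.05 to 21.5) in endothelial-like, 7.07 CPM (4.26 to 11.0) in stellate-like, 4.77 CPM (3.196 to 6.85) in macrophage-like and 2.78 CPM in hepatocyte-like nuclei. The stellate-like and macrophage-like intervals overlapped, and so, slightly, did the macrophage-like and hepatocyte-like ones. The endothelial-like level was 6.29-fold (4.74 to 8.33) the hepatocyte-like one, from 90 UMIs in 75 of 1120 nuclei with at most 4 in 1 nucleus. No hepatocyte marker exceeded 113% of its hepatocyte-like level in that class.

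In HKO the hepatocyte-like nuclei were highest. Cux2 was at 78.3 CPM (72.5 to 84.4) in endothelial-like, 68.9 CPM (63.0 to 75.2) in macrophage-like, 59.2 CPM (51.9 to 67.2) in stellate-like and 58.5 CPM (46.6 to 72.5) in T/NK-like nuclei. Among these 4 classes the intervals of neighbours overlapped, and all 4 lay below the hepatocyte-like interval. These levels were 83.3%, 73.3%, 63.0% and 62.2% of the hepatocyte-like level, all below the hepatocyte marker share of the class. In endothelial-like nuclei the interval (76.6 to 90.4%) included that share (86.4%). After thinning, 12.2% (10.3 to 14.3) of the 1033 HKO macrophage-like nuclei with at least 2000 UMIs held a Cux2 UMI (754 were left out), beside 15.6% of hepatocyte-like nuclei, at unthinned median depths of 2236 and 3928 UMIs. In WT macrophage-like nuclei, of which 18 were left out, the share was 0.760% (0.329 to 1.49).

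**Figure D3:**
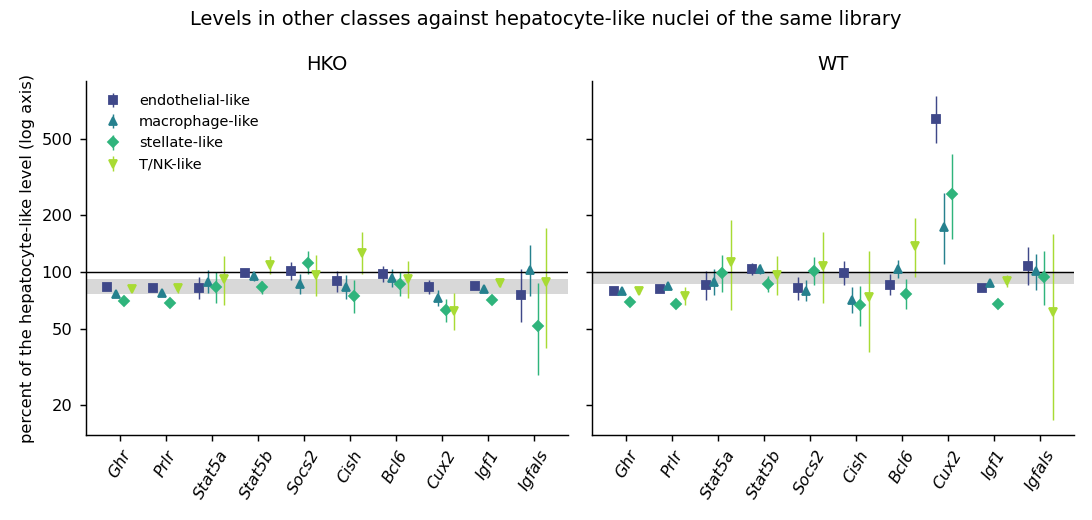
Levels of the 10 genes in 4 classes as a percent of the hepatocyte-like level of the same library (log axis), with exact 95% conditional intervals; the grey band spans the median hepatocyte marker shares of those classes, and points with 3 or fewer UMIs are not drawn. Nearly all points lie near the band, and WT Cux2 in endothelial-like nuclei stands at 629%.

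Of the members, Ghr, Cux2 and Igfals had the largest ratios in hepatocyte-like nuclei, and their ratios in the other classes had the same sign. Ghr had log2 ratios of HKO over WT of -0.38 in endothelial-like, -0.51 in macrophage-like, -0.43 in stellate-like and -0.43 in T/NK-like nuclei. Cux2 was 4.48-fold (3.59 to 5.64) higher in HKO endothelial-like nuclei, 14.4-fold (9.93 to 21.8) in macrophage-like and 8.37-fold (5.24 to 14.2) in stellate-like nuclei. In T/NK-like nuclei it had 83 UMIs in HKO and 1 in WT, a ratio of 23.5 (4.10 to 938). Higher by 2-fold in HKO were 2.67%, 2.56%, 2.73% and 7.93% of all genes in these 4 classes.

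Igfals was at 5.45 CPM in HKO against 17.5 CPM in WT endothelial-like nuclei, with WT 3.21-fold higher (2.23 to 4.67), and at 7.38 and 16.3 CPM in macrophage-like nuclei, with WT 2.21-fold higher (1.57 to 3.14). Over all genes 4.45% and 3.85% were lower by 2-fold in HKO there. In stellate-like and T/NK-like nuclei, where 4.19% and 6.76% of all genes were lower, Igfals missed the 10 CPM floor, with 15 UMIs in HKO and 41 in WT in the former and 9 and 4 in the latter. Free hepatocyte RNA was high in all of these classes, and its part in these ratios was not tested.

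Hepatocytes differ along the liver lobule, from those around the central vein (pericentral) to those around the portal vein (periportal). Hepatocyte-like nuclei were ranked by the share of pericentral among the UMIs of 16 zone genes that exclude the members, and cut into 3 equal ranges, which are parts of a score and not cell types. Scored were 8625 HKO and 9614 WT nuclei, of which 1845 and 981 lay within 0.02 of a cut. The cuts were set within each library, at shares of 0.0833 and 0.208 in HKO and 0.3 and 0.522 in WT. Ranges of the same name are therefore not matched zones between the libraries. Of the check genes outside the score, 7 of 7 measured pericentral ones, among them Lgr5, were higher in the pericentral range of both libraries. Of the periportal check genes 7 of 8 in HKO and 6 of 7 in WT were higher in the periportal range, and Apof was the exception in both.

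Cux2 was highest in the pericentral range. HKO gave 119 CPM in the pericentral, 90.2 CPM in the middle and 74.1 CPM in the periportal range, a 1.61-fold gradient (1.48 to 1.75). WT gave 3.996, 2.36 and 2.07 CPM, a 1.93-fold gradient (1.23 to 3.08) on low counts. Cux2 was the 1 of 10 members past 1.5-fold towards the pericentral side in HKO, where 2.37% of all genes were, and in WT it was 1 of 2, where 2.27% were. HKO exceeded WT 29.8-fold (22.8 to 39.7), 38.3-fold (27.2 to 55.5) and 35.8-fold (25.2 to 52.7) in the 3 ranges. The difference was present in each pair of ranges, which were cut at different scores in the libraries.

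Socs2 ran the same way. It was at 72.6, 53.1 and 42.0 CPM from the pericentral to the periportal range of WT, a 1.73-fold gradient (1.56 to 1.91). HKO gave 62.3, 46.3 and 43.6 CPM, a gradient of 1.43-fold (1.28 to 1.60) that missed 1.5-fold. Cish, the other inhibitor, was at 33.7, 42.0 and 45.1 CPM in WT, higher on the periportal side, and at 35.4, 38.5 and 36.2 CPM in HKO.

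The receptors leaned to the pericentral side. Ghr was at 5081, 4403 and 4201 CPM in HKO and at 6968, 5972 and 5846 CPM in WT, gradients of 1.21-fold (1.20 to 1.22) and 1.19-fold (1.18 to 1.20). Prlr had gradients of 1.25-fold (1.22 to 1.28) and 1.14-fold (1.11 to 1.16). Igf1 ran the opposite way to its receptor route, with 1387, 1636 and 1793 CPM in HKO and 1595, 1851 and 2050 CPM in WT. Its log2 ratios of pericentral over periportal were -0.37 and -0.36. In both libraries, then, Ghr was higher and Igf1 lower on the pericentral side, each by less than 1.5-fold.

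Stat5b, Bcl6 and Igfals had gradient intervals that include 1 in both libraries. Stat5a was 1.17-fold (1.03 to 1.33) higher on the pericentral side of HKO and 1.02-fold (0.901 to 1.16) in WT. No member passed 1.5-fold towards the periportal side, where 1.67% of all genes over the 10 CPM floor in HKO and 2.11% in WT were.

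**Figure D4:**
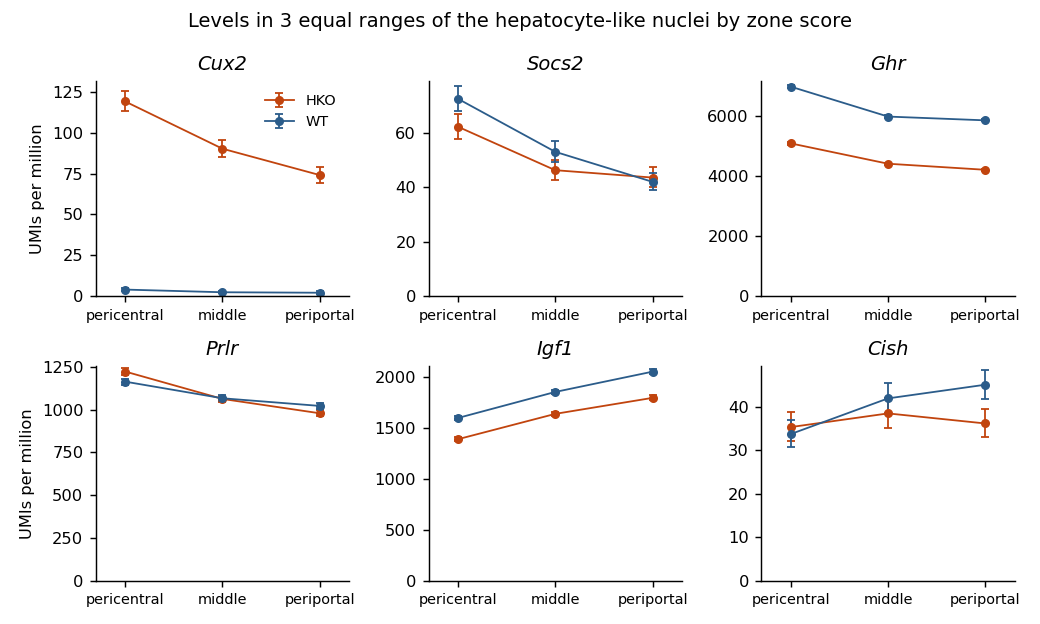
Levels of 6 members (CPM, axes from 0) in the pericentral, middle and periportal ranges of hepatocyte-like nuclei, with exact 95% Poisson intervals. Cux2 and Socs2 are highest at the left in both libraries, Ghr and Prlr are slightly higher there, and Igf1 is lowest there.

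Single clusters give the zones and the cycling nuclei in another way. The HKO hepatocyte-like cluster led by pericentral genes such as Glul and Slc1a2 (705 nuclei) held Cux2 at 151 CPM (137 to 166), against 88.1 CPM in the largest cluster (7201 nuclei) and 102 CPM in the cycling cluster (783 nuclei). Socs2 was at 77.0, 49.5 and 38.8 CPM in these clusters, and at 81.9, 52.0 and 49.6 CPM in the matching WT clusters. Ghr was lowest in the cycling clusters, at 3587 CPM in HKO against 5293 CPM in WT, beside 4485 and 6192 CPM in the largest clusters. Igf1 was at 1361 CPM in the cycling and 1671 CPM in the largest HKO cluster, and at 1655 and 1959 CPM in WT. These clusters were formed from all genes, the members included, so the values describe them only.

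Of 40 other genes of the route, 33 passed the 10 CPM floor in hepatocyte-like nuclei, 1 more than 2-fold higher and 4 more than 2-fold lower in HKO, with a median log2 ratio of 0.00 beside 0.16 for all genes. Over all genes, 2.99% were higher and 4.5% lower by that size. Trim24, a nuclear receptor cofactor, was at 479 CPM in HKO against 129 CPM in WT, a log2 ratio of 1.89. Igfbp1, an IGF-binding protein of the fasted liver, was at 41.6 and 208 CPM (-2.31), Socs3, an inhibitor induced by interleukin 6, at 20.1 and 52.3 CPM (-1.36), and Lifr, a cytokine receptor, at 349 and 827 CPM (-1.24). Onecut1, a liver factor that growth hormone induces, was the fourth lower gene, at 22.7 and 47.1 CPM, with a log2 ratio of -1.04. The kinase Jak2 was at 40.3 and 49.3 CPM.

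Genes known for higher levels in male mouse liver numbered 32 in the tables, and 22 passed the floor. One of these was more than 2-fold higher in HKO and 7 were lower, with a median log2 ratio of -0.49, beside 2.99% higher, 4.5% lower and a median of 0.16 over all genes. Mup11, Mup7 and Hsd3b5 passed the floor only through WT, where they were high, so this count supports nothing. The largest ratios were those of Mup11 (6.95 CPM in HKO and 112 CPM in WT), Mup7 (3.72 and 58.4 CPM), Selenbp2 (741 and 55.1 CPM), Hsd3b5 (6.15 and 57.4 CPM) and Serpina1e (290.1 and 1466 CPM). Selenbp2, a selenium-binding protein, was the one male-biased gene more than 2-fold higher in HKO, and the others of the 5 were lower. Other male-biased genes hardly differed: Cyp7b1, an oxysterol hydroxylase, was at 988 and 870 CPM and Slco1a1, an organic anion transporter, at 273 and 332 CPM. Mup and Serpina1 genes are families of near-identical copies, so reads may be split among them and their values are uncertain.

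Of 36 genes known for higher levels in female liver, 11 passed the floor and 25 did not, each with a mean of at most 9.23 CPM. Among the 11, 6 were more than 2-fold higher in HKO and 1, Fst, was lower, beside the same 2.99% and 4.5% of all genes. Some passed only through the library where they were high, so this count supports nothing. Lepr, the leptin receptor, was at 39.4 CPM in HKO against 1.66 CPM in WT, Cyp4a10 at 34.2 and 3.39 CPM, and Fmo2 at 21.4 and 2.71 CPM. Cyp39a1 was at 66.9 and 16.8 CPM and Nipal1 at 30.6 and 7.78 CPM. Of the 25 genes under the floor, 11 were higher and 11 lower in HKO by any amount. Among them Cyp2a4, a near-identical copy of Cyp2a5 whose reads may be split, had 1 UMI in HKO and 513 in WT (11.7 CPM). Some genes typical of female liver stayed near 0 in both libraries: Cyp2b9 had 1 UMI in HKO and 7 in WT, A1bg 2 and 1, and Cyp3a41a none, which allows up to 0.0781 CPM (HKO) or 0.0683 CPM (WT) (3 UMIs of the class total).

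**Figure D5:**
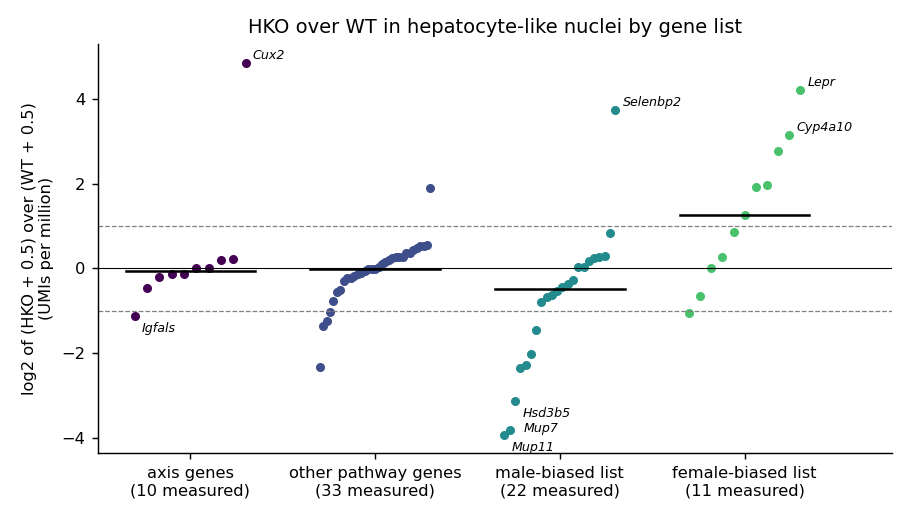
Log2 ratios of HKO over WT in hepatocyte-like nuclei for every gene over the 10 CPM floor in 4 lists, ordered within a list; bars are medians and dashed lines mark 2-fold. The axis genes cluster near 0 except Cux2 and Igfals, and the male-biased list spreads from -3.92 to 3.74.

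Likeness of pattern was measured as Pearson's r of log2(CPM + 1) over 13 sums of a class and library with at least 100 nuclei, among 9173 genes, which share libraries and free RNA. The genes most like Cux2 were Lepr (r = 0.983), Tmtc2 (0.970) and Parg (0.966). Ghr was most like Lipc (0.989), Habp2 (0.980) and Slc38a3 (0.979), and Prlr most like Acsl1 (0.990), Scara5 (0.953) and Slc22a23 (0.953). Igf1 was most like Egfr (0.964), Arg1 (0.961) and Uox (0.954), and Igfals most like Tmem53 (0.965), Cox5b (0.955) and Ctbs (0.933). For Stat5b the closest were Spata1 (0.928), Ssbp1 (0.927) and Ulk1 (0.921), for Stat5a Abhd2 (0.885), Ctps2 (0.880) and Rpl10a (0.876), and for Bcl6 Marveld2 (0.940), Acad12 (0.936) and Pcid2 (0.924). Socs2 (Commd7 at 0.844, Raly at 0.834 and Saysd1 at 0.829) and Cish (1600020E01Rik at 0.819, Galns at 0.814 and Mpv17l at 0.813) had the loosest matches.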

How the data were processed

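Nuclear RNA of mouse liver, 1 HKO and 1 WT library, was read from the 3′ end with 10x chemistry. The deposited values are raw UMI counts per gene and barcode, made with Cell Ranger 5.0.0 per the file headers. GRCm38, STAR and Seurat 3.2.0 are further named in the submitters' processing notes, without their roles. The labels' extract protocol describes total RNA, although the molecule is nuclear RNA. Groups were taken from the sample titles, since the genotype field holds the age. The members and lists were chosen with earlier results of these data known.

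A barcode was kept from 500 genes up and below a mitochondrial share of 10%, which left 14902 in HKO and 14515 in WT. No doublet caller was run. Both libraries were clustered together (2000 variable genes, 30 principal components, 15 neighbours, Leiden resolution 0.5; scikit-learn 1.9.0, leidenalg 0.10.2) and named from marker lists. The naming rules were completed after the data were seen: a marker had to reach 20 CPM, and mixed immune clusters were divided again on marker genes. Neutrophil (3 of 10 markers detected), erythroid (4 of 9) and mesothelial (1 of 8) classes could not be named. Counts were summed per class and library (pandas 2.3.3, scipy 1.17.1). Ratio and interval code was tested on simulated data.

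Of the tables' 27998 genes, 27645 matched GENCODE vM21 by identifier. The genes named were the 10 members, the 5 largest ratios over the floor in each other list, the 3 genes most like each member, and zone check genes. Sox9, Jak2, Stat3, Igf1os, Gm21973, Fst, Cyp7b1, Slco1a1, Cyp2b9, Cyp2a4, A1bg, Cyp3a41a, Y-linked genes, Xist, clock and fasting genes, and antisense partners were added after their values were seen. One gene of the pathway list is not reported here and was left out of its counts.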

Additional observations from a re-analysis of the deposited data

How the results depend on the processing

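With 1 library per group nothing bounds the spread between animals, and depth limits Igfals, WT Cux2 and the small classes. Over the 10 alternatives that can change them (all but the 2 floors), the members' log2 ratios gave 100 values, of which 70 stayed within the counting interval of the main value, 30 moved beyond it and 0 reversed a called direction. Cux2 ranged from 3.67 to 4.98, Igfals from -1.32 to -0.80 and Ghr from -0.62 to -0.43. Median ratio size factors lowered every ratio by 0.17 and TMM factors (edgeR 4.0.16) by 0.12 on the log2 scale, which took Prlr and Bcl6 below 0. Of all genes past 2-fold, 252 were higher and 379 lower by class totals (39.9% higher), 166 and 524 by size factors (24.1%), and 191 and 485 by TMM (28.3%).

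A floor of 50 CPM, which tests fewer genes, left 0 members higher and 0 lower (1 each in the main result), 2 pathway genes lower (4), 4 male-biased genes lower (7), and 0 female-biased genes higher (6) and 0 lower (1). A floor of 1 CPM gave 2 male-biased genes higher (1) and 10 lower (7), and 5 pathway genes lower (4). It also gave 8 female-biased genes higher (6) and 3 lower (1). Adding 5 CPM gave 0 members lower (1), 3 pathway genes lower (4), and 5 female-biased genes higher (6) and 0 lower (1). Equal weight per nucleus and thinning to 2000 UMIs each gave 0 female-biased genes lower, and the cause was not tested. In HKO, requiring 2000 UMIs gave 0 members above hepatocyte-like nuclei (1), and comparing the outermost of 5 equal zone ranges in place of 3 gave 2 members past 1.5-fold towards the pericentral side (1). The zone ratios gave 80 values, 63 within the counting interval and 17 beyond it, with 0 reversed. Leaving out nuclei with a haemoglobin UMI, chosen after seeing the data, changed no count. Equal weight per nucleus was not run for the comparison with hepatocyte-like nuclei, since it gives no counting interval. No paired analysis was possible because each group holds 1 library.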
